A study of Drosophila melanogaster with 6 samples.

Results

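The piRNA pathway genes rhi, cuff, del, piwi, aub, AGO3, vas, spn-E, krimp and tej were followed in fruit fly embryos that lacked normal maternal zelda (zld) function. They were found by gene symbol in the array's annotation, where each of the 10 genes had 1 probe set naming it alone, so that 10 of the 11981 genes with such a probe set, and 10 of the 18769 probe sets tested, are described. A further probe set shared by vas and wwk was left out because its signal cannot be assigned to either gene. Drosophila melanogaster embryos aged 1 to 2 h were collected from mothers with a zld mutant germ line (zld clone embryos, 3 arrays) and from yw mothers, labelled as wild type (yw embryos, 3 arrays). The allele and the way the clones were made are not given in the sources used here, and the yw embryos were not labelled as germ-line clones. In the collections, 90% of the embryos stained for staging were in nuclear cycles 8 to 13, per the series text. Total RNA of whole embryos was hybridised to Affymetrix Drosophila Genome 2 arrays, so that maternal RNA, pole cells and somatic nuclei were measured together.

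PIWI-interacting RNAs (piRNAs) are small germ-line RNAs that guide Argonaute proteins of the Piwi clade to transposon transcripts. Their precursors are transcribed from clusters of transposon remnants, which in the fly germ line depends on the complex of Rhino, Deadlock and Cutoff. The precursors are processed in the cytoplasm, where Aubergine and AGO3 amplify piRNAs in turns in the perinuclear granule called nuage, and Piwi carries piRNAs into the nucleus. The mother loads proteins and RNAs of this pathway into the egg, and Vasa and Aubergine are also components of germ plasm.

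The targeted gene, zld, had signals of 263, 196 and 215 in zld clone embryos, against 1023, 1062 and 967 in yw embryos (log2 fold change -2.11, SE 0.114, adjusted p = 1.92e-04, limma). All 7 listed markers of the zygotic blastoderm (halo, nullo, Z600, Sry-alpha, scw, Bro and CG13713) fell as well. Their summed signal was 167 to 175 per array in zld clone embryos and 2107 to 3568 in yw embryos. Over all probe sets 0.778% were called lower (adjusted p under 0.05, limma). These 7 were chosen with earlier results of these data known, so their common fall does not stand for other blastoderm genes. Markers of later embryos, made of muscle and matrix genes, were uneven among the yw arrays. For the 7 measured of 9 listed the summed signal was 40.1 to 66.3 in zld clone embryos and 93.9 to 487 in yw embryos, with yw replicates 1 and 2 at the high end, and 0 of the 7 passed the test singly. Signals of Bacillus control probe sets had a 95th percentile of 18.1, which is used here as the level of background. Every one of the 10 piRNA genes had a mean signal above it.

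Of the 10 piRNA genes, rhi rose in zld clone embryos and the other 9 did not pass the test. Over all probe sets 0.863% were called higher and 0.778% lower at an adjusted p under 0.05 (limma), and among the 9384 probe sets brighter than the median 1.49% were called higher and 1.36% lower. The number of members called lower by limma was 0, and it was 0 under all 17 alternatives too. Before adjustment, 5 of the 10 (rhi, vas, cuff, aub and tej) were higher at p under 0.05, against 6.69% of all probe sets and 10.8% of the brighter ones. By the same measure 1 of the 10, spn-E, was lower, against 8.67% of all probe sets and 9.97% of the brighter ones. The median log2 fold change of the 10 genes was 0.19, that of all probe sets -0.05 and that of the brighter probe sets -0.03. The values for each gene below are array signals on a linear scale, and each fold change is of zld clone over yw embryos on the scale of log2(signal + 16).

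**Figure D1:**
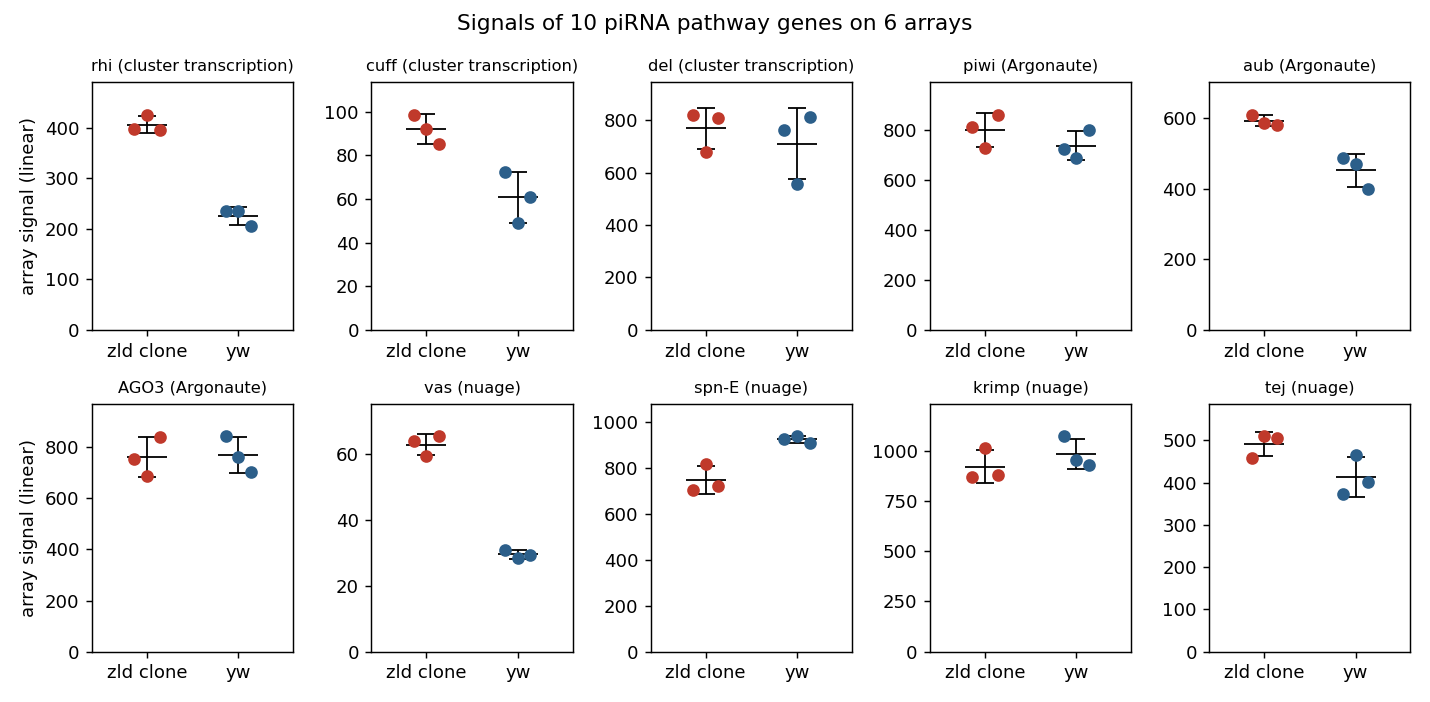
Array signals (vertical axis, linear, from 0) of the 10 piRNA pathway genes in zld clone embryos (red, left) and yw embryos (blue, right); points are single arrays in the order of replicates 1 to 3, and the horizontal mark and bars are the mean and SD of 3 arrays. For rhi, cuff, aub and vas every zld clone array is above every yw array, and for spn-E every zld clone array is below.

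Among the genes of cluster transcription, rhi was higher in every zld clone array. Rhino, a chromodomain protein of the HP1 family that marks piRNA clusters in chromatin, had signals of 397, 426 and 396 in zld clone embryos, against 236, 235 and 204.8 in yw embryos. The lowest zld clone array lay well above the highest yw array, and the means of 406 ± 16.97 and 225 ± 17.7 (SD, n = 3 arrays each) differed 1.80-fold. The log2 fold change was 0.81 (SE 0.0919, 95% interval 0.60 to 1.02, adjusted p = 0.00603, limma). In whole embryos, more cells holding a transcript and more of it per cell (or, for a lower signal, fewer and less) cannot be told apart. The call held when any single array was left out (log2 fold change 0.75 to 0.84, adjusted p from 0.0133 to 0.0471). Without yw replicates 1 and 2 together, the arrays with high muscle and matrix signals, the log2 fold change was 0.93 (adjusted p = 0.0478, limma); that fit has 1 yw array, the lowest of the 3 for rhi, and assumes that it varies like the zld clone arrays. It ended under the methods' t-test, whose adjusted p for rhi was 0.0875.

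Cutoff and Deadlock, the partners of Rhino, did not pass. For cuff, whose protein resembles decapping cofactors and acts with Rhino on cluster transcripts, the signals were 98.6, 92.2 and 85.0 in zld clone embryos, against 72.4, 48.9 and 60.9 in yw embryos. The arrays of both groups were apart, but the yw arrays spread over a wide range, with a coefficient of variation of 19.3% against 7.40% in zld clone embryos. The log2 fold change was 0.50 (SE 0.158, 95% interval 0.14 to 0.87, adjusted p = 0.182, limma). The signals of del, whose protein joins Rhino to Cutoff, were 821, 679 and 807 in zld clone embryos and 763, 556 and 814 in yw embryos. Here the groups overlapped, replicate 2 was the lowest array of each, and the interval of the log2 fold change ran from -0.22 to 0.47 around 0.12 (adjusted p = 0.723, limma).

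Among the Argonautes piwi and AGO3 differed little, the arrays of aub were apart, and none of these genes passed. Aubergine, a cytoplasmic Argonaute that cleaves transposon RNA, gave aub signals of 610, 587 and 582 in zld clone embryos, against 488, 471 and 399 in yw embryos. All 3 zld clone arrays were above all 3 yw arrays, and the means of 593 ± 14.97 and 453 ± 47.0 (SD, n = 3 each) differed 1.31-fold. The log2 fold change of aub was 0.38 (SE 0.0961, 95% interval 0.16 to 0.60, adjusted p = 0.106, limma). It passed with median centring of the arrays (log2 fold change 0.54, adjusted p = 0.028) and when only probe sets at or above the median signal were tested (adjusted p = 0.0491), and in none of the other 15 alternatives.

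Piwi itself, the nuclear Argonaute of transcriptional silencing, had piwi signals of 813, 728 and 861 in zld clone embryos and 725, 686 and 801 in yw embryos. These ranges overlapped, and the log2 fold change was 0.12 (95% interval -0.11 to 0.34, adjusted p = 0.615, limma). AGO3, which takes turns with Aubergine in piRNA amplification, had signals of 753, 688 and 841 in zld clone embryos and 842, 762 and 701 in yw embryos. The AGO3 groups covered nearly the same range, with a log2 fold change of -0.015 (95% interval -0.26 to 0.23, adjusted p = 0.962, limma). The gene order of the RefSeq assembly places 1 gene, CG12253, between piwi and aub.

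In the nuage group vas and spn-E lay apart in opposite directions, and neither passed. Vasa, a DEAD-box helicase of nuage and germ plasm, had vas signals of 63.8, 59.4 and 65.3 in zld clone embryos, against 30.8, 28.3 and 29.4 in yw embryos. Every zld clone array was well above every yw array, with coefficients of variation of 4.88% and 4.25%, and the means differed 2.13-fold. The yw signals lay close to the background of 18.1. The size of the log2 fold change therefore rests on the pseudocount, being 1.07 with a pseudocount of 1 and 0.44 with 64. At a log2 fold change of 0.79 (SE 0.162, 95% interval 0.42 to 1.17) the adjusted p was 0.06 (limma). Its side of the threshold depended on the setting: vas passed under 7 of 17 alternatives, among them quantile normalization (0.92, adjusted p = 0.0382), a pseudocount of 1 (1.07, adjusted p = 0.0288) and eBayes without trend (0.79, adjusted p = 0.0102), and in none of the 6 fits without 1 array.

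The probe set shared by vas and wwk did not show this rise. Its signals, around background, were 9.30, 18.5 and 16.8 in zld clone embryos and 31.7, 14.2 and 20.2 in yw embryos. They overlapped, with a log2 fold change of -0.29 (adjusted p = 0.587, limma). On the RefSeq assembly solo and vig overlap vas, and solo had no probe set of its own here. The probe set of vig, which encodes an RNA-binding protein, had signals of 94.5, 85.2 and 84.5 in zld clone embryos, against 148, 112 and 131 in yw embryos. These arrays were apart in the direction opposite to those of vas, and the log2 fold change of -0.49 did not pass (adjusted p = 0.13, limma). Further genes overlapped rhi (CG10936), cuff (ERp60), del (pths), piwi (SCAR), aub (TTLL4A) and spn-E (Pbp45), with log2 fold changes from -0.23 for pths to 0.15 for SCAR, none of which passed.

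Spindle-E, a helicase with a Tudor domain that is needed for piRNA amplification, had spn-E signals of 703, 817 and 723 in zld clone embryos, against 927, 938 and 909 in yw embryos. The zld clone arrays were all lower, and the yw arrays lay close together, with a coefficient of variation of 1.57%. The log2 fold change of spn-E was -0.30 (SE 0.0872, 95% interval -0.51 to -0.10, adjusted p = 0.146, limma). It was negative and not called under all 17 alternatives, some of which cannot change a member's log2 fold change. The signals of tej, whose protein Tejas has a Tudor domain and binds Vasa, were 459, 510 and 506 in zld clone embryos and 373, 465 and 401 in yw embryos. The lowest zld clone array of tej was just under yw replicate 2, and the log2 fold change was 0.25 (95% interval 0.01 to 0.48, adjusted p = 0.303, limma). Krimper, a Tudor protein that brings AGO3 and Aubergine together, had krimp signals of 869, 1013 and 881 in zld clone embryos and 1071, 952 and 930 in yw embryos. The krimp groups overlapped, with a log2 fold change of -0.10 (95% interval -0.32 to 0.13, adjusted p = 0.675, limma).

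By the order of arrays, 4 of the 10 genes (rhi, cuff, aub and vas) had all zld clone arrays above all yw arrays, and 1 (spn-E) had them all below. Over all probe sets 8.11% were apart in the first way and 13.6% in the second. These shares were not counted among the brighter probe sets, to which all 10 genes belong. Without yw replicates 1 and 2, which held the higher muscle and matrix signals, the log2 fold changes of cuff, aub, vas and spn-E were 0.49, 0.55, 0.80 and -0.28, against 0.50, 0.38, 0.79 and -0.30 with all arrays. The 5 genes with overlapping arrays (del, piwi, AGO3, krimp and tej) had log2 fold changes from -0.10 to 0.25.

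**Figure D2:**
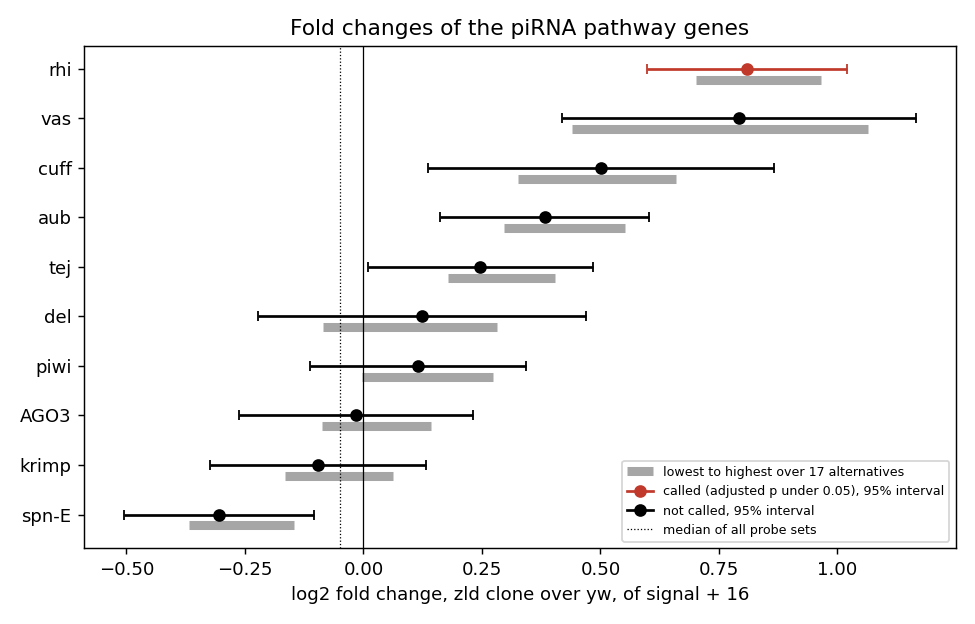
Log2 fold change of each piRNA pathway gene, zld clone over yw embryos, on the log2(signal + 16) scale (horizontal axis), with its 95% interval from limma on 3 arrays per group; grey bars span the lowest to highest value over 17 alternative settings, and the dotted line is the median of all probe sets at -0.05. The interval of rhi, from 0.60 to 1.02, is that of the called gene (red), and the grey bars of del, piwi, AGO3 and krimp cross 0.

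Ratios between members on the same array cancel the array's scaling, apart from the pseudocount, and they show whether partners differed unequally. All 12 pairs within a role were compared on the log2(signal + 16) scale, each with the gene of the larger fold change on top. For 9 pairs the arrays of both groups did not overlap, and each of these 9 had a two-sided exact permutation p of 0.1, the smallest that 3 against 3 arrays allow, or 0.133 after Benjamini-Hochberg adjustment over the 12 pairs. This test therefore cannot reach 0.05 for any pair, and the sizes are given as descriptions. The pairs share genes, and putting the gene of the larger fold change on top makes every difference positive. How many pairs of other genes would lie apart was not counted.

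The widest gap was in nuage. The log2 ratio of vas over spn-E was -3.17, -3.47 and -3.18 in zld clone embryos, against -4.33, -4.43 and -4.35 in yw embryos, a difference of 1.10 (SE 0.101). The ratio of vas over krimp differed by 0.89 and that of vas over tej by 0.55. The arrays of tej over spn-E were also apart. This log2 ratio averaged -0.59 ± 0.0814 in zld clone embryos and -1.14 ± 0.145 in yw embryos (SD, n = 3 each), a difference of 0.55.

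Within the Rhino complex, rhi over del averaged -0.89 ± 0.205 in zld clone embryos and -1.58 ± 0.364 in yw embryos (SD, n = 3 each). The groups were apart by a difference of 0.68 (SE 0.242), and cuff over del was apart by 0.38 (SE 0.139). Rhi over cuff overlapped, with a difference of 0.31 (SE 0.158, exact permutation p = 0.2). Among the Argonautes aub over AGO3 was apart, at -0.35 ± 0.154 in zld clone embryos and -0.74 ± 0.0586 in yw embryos (SD, n = 3 each). Aub over piwi and piwi over AGO3 overlapped, with differences of 0.27 and 0.13.

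**Figure D3:**
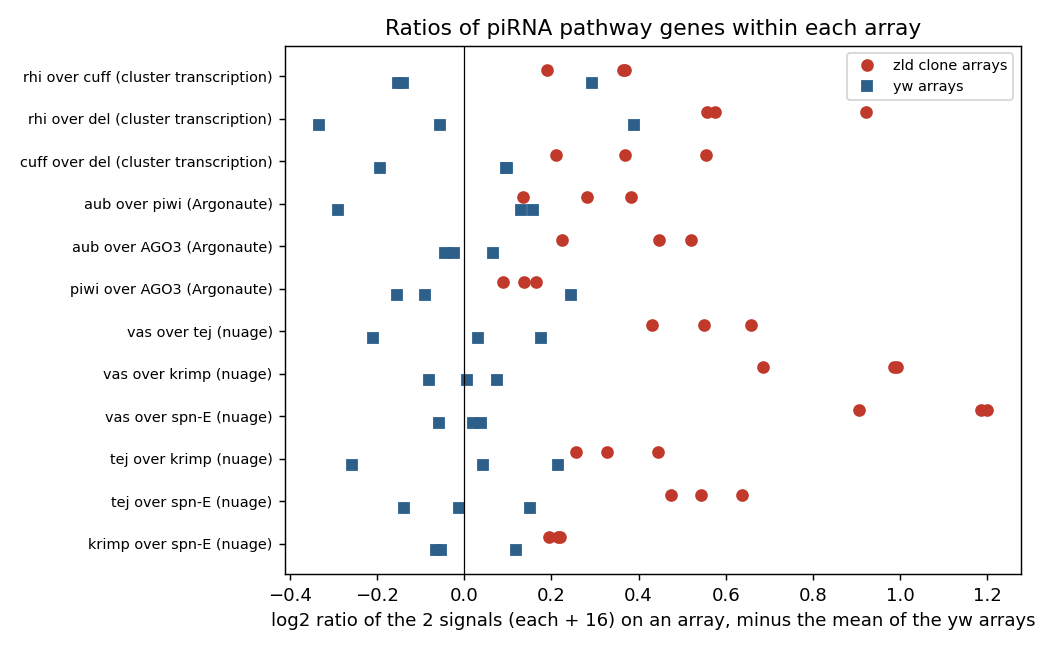
Log2 ratio of the signals (each + 16) of 2 piRNA pathway genes on the same array, minus the mean of the yw arrays (horizontal axis), for the 12 pairs within a role; circles are zld clone arrays and squares are yw arrays, 3 each. The circles of vas over spn-E stand farthest from their squares, 1.10 apart on average, and 3 pairs overlap.

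The rest of the pathway was read from 4 lists of other piRNA factors, of which 40 of 43 listed genes were measured. Of these 40 genes 1 rose, 1 fell and 38 did not pass, against 0.863% higher and 0.778% lower over all probe sets. Their median log2 fold change was 0.04. Arrays were apart for 15 of the 40, with the zld clone arrays above for 10 and below for 5. Over all probe sets 8.11% were above and 13.6% below, shares that were not counted among the brighter probe sets.

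Both called genes were in the list of piRNA biogenesis, which had 13 measured genes and a median log2 fold change of -0.02. Papi, a Tudor protein of the mitochondrial surface where piRNA precursors are trimmed or cut, fell, with papi signals of 221, 237 and 231 in zld clone embryos, against 410, 363 and 305 in yw embryos. All zld clone arrays of papi were below all yw arrays, and the log2 fold change was -0.60 (SE 0.116, adjusted p = 0.0492, limma), close to the threshold. The call ended under 11 of 17 alternatives. Among them were those without zld clone replicate 1, 2 or 3 and without yw replicate 1 or 2 (log2 fold change -0.62 to -0.51, adjusted p from 0.071 to 0.204, limma). Without yw replicates 1 and 2 together, the log2 fold change of papi was -0.39.

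The other was fs(1)Yb, which encodes the Tudor-domain helicase Yb of the somatic follicle cells of the ovary. It rose, with yw signals within background: fs(1)Yb signals were 22.2, 23.0 and 18.5 in zld clone embryos, against 3.40, 6.50 and 4.70 in yw embryos. The groups were apart, but the size of the fold rests on the pseudocount, being 0.84 as fitted (SE 0.138, adjusted p = 0.0275, limma), 1.95 with a pseudocount of 1 and 0.31 with a pseudocount of 64. Its call ended whenever any 1 array was left out (adjusted p from 0.0626 to 0.0949). Beside it, the follicle cell markers tj and Cp36 were at or below 8.60 on every array and dec was at 3.10 to 24.7. The eggshell gene psd was above background, at 24.0 to 29.7 in zld clone embryos and 29.9 to 32.6 in yw embryos, the zld clone arrays being the lower. The summed signal of the 4 measured of 5 listed follicle markers was 41.5 to 59.7 in zld clone embryos and 42.7 to 67.1 in yw embryos, with 0 of 4 passing the test.

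In the list of cluster transcription and precursor export 0 of 11 measured genes passed, with a median log2 fold change of 0.14. The largest differences there were those of kipf, whose protein Kipferl guides Rhino to clusters, at -0.44 (adjusted p = 0.165, limma), and Nxf3, the export factor of cluster transcripts, at -0.42 (adjusted p = 0.703). The Nxf3 value rests on zld clone replicate 2: its signals were 116, 16.1 and 72.6 in zld clone embryos, against 107, 74.5 and 63.6 in yw embryos, and without that array the log2 fold change was 0.17. The kipf signals were 329, 274 and 293 in zld clone embryos, against 431, 470 and 338 in yw embryos. They were apart, in the direction opposite to those of rhi, but zld clone replicate 1 (329) and yw replicate 3 (338) lay close. Without yw replicates 1 and 2, the log2 fold change of kipf was -0.17. The gene moon, which encodes the transcription factor that acts with Rhino at clusters, was at 0.15 with overlapping arrays.

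Among 10 measured genes of nuclear silencing with Piwi 0 passed, with a median of 0.01. The gene nxf2, which encodes a subunit of the silencing complex recruited by Piwi, had signals of 503, 612 and 548 in zld clone embryos, against 360, 409 and 382 in yw embryos. Those arrays were apart, and the log2 fold change of 0.51 came close to the threshold (adjusted p = 0.0515, limma). It passed under 5 of 17 alternatives, which were a pseudocount of 1, the filter at the median signal, median centring, array weights and the mean of all probe sets (adjusted p from 0.0136 to 0.0439). Its complex partner Panx was at -0.03 with overlapping arrays. The zinc finger gene sov had the next largest difference, at -0.23 (adjusted p = 0.611, limma), or -0.017 without zld clone replicate 2.

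Among 6 genes of Tudor proteins and arginine methylation in nuage 0 passed, with a median log2 fold change of 0.13. Those of tapas, a Tudor protein gene, and squ, which encodes a nuage protein that binds Aubergine, were 0.25 and 0.23 (adjusted p = 0.287 and 0.297, limma). For comparison, 0 of 6 measured genes of the miRNA and siRNA pathways passed, and their median was -0.01. This list had 9 genes, of which AGO1, AGO2 and Dcr-1 had no probe set under those names. The processing enzyme gene drosha was at -0.19 and its partner pasha at 0.11 (adjusted p = 0.364 and 0.719, limma). Before adjustment, 0 of these 6 and 11 of the 40 other piRNA factors had p under 0.05, where all probe sets had 6.69% higher and 8.67% lower and the brighter ones 10.8% and 9.97%. Whether these lists differ from one another was not tested.

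**Figure D4:**
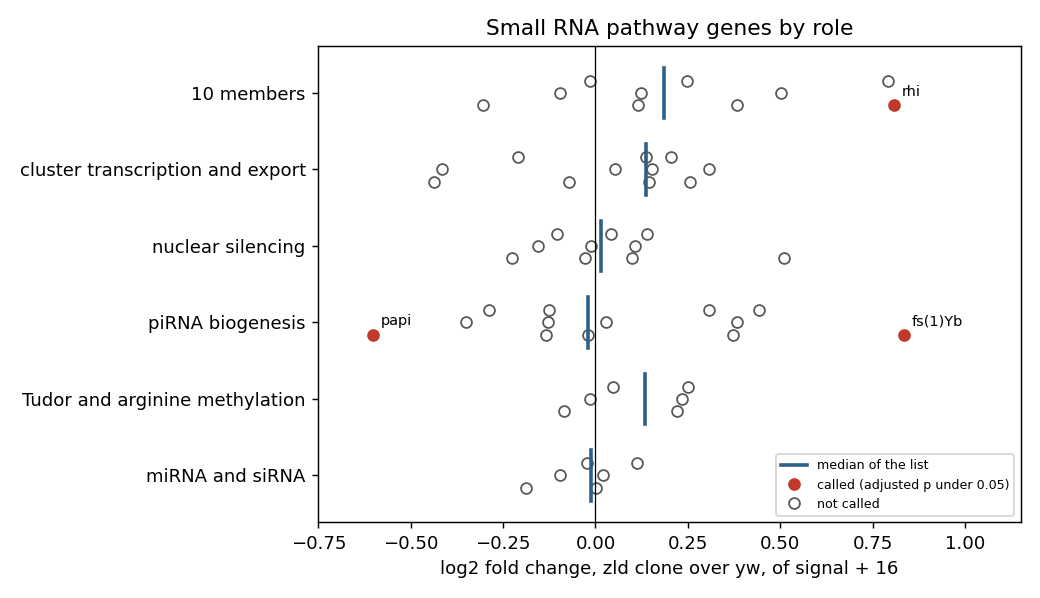
Log2 fold change of zld clone over yw embryos on the log2(signal + 16) scale (horizontal axis) for the 10 piRNA pathway genes and 5 lists of other small RNA genes; filled red points are called genes, open points are not called, and blue bars are list medians, from -0.02 for piRNA biogenesis to 0.19 for the 10 genes. The vertical offset of points within a list carries no value. The called genes are rhi, papi and fs(1)Yb.

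Other maternal RNAs, of the germ plasm and of the egg axes, were set beside these genes. Of 8 listed markers 6 were measured (osk, gcl, orb, bcd, exu and stau), 0 passed, and the median log2 fold change was 0.03. Their summed signal was 7194 to 8006 in zld clone embryos and 6606 to 7584 in yw embryos, which overlap. By the brightest probe sets, exu alone had arrays that were apart, at 0.65 (adjusted p = 0.099, limma). Another, dimmer probe set of exu had overlapping signals of 55.6, 73.5 and 56.8 in zld clone embryos and 63.4, 75.2 and 51.5 in yw embryos. Its log2 fold change was -0.02 (adjusted p = 0.965, limma).

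The 5 profiles most like that of rhi over the 6 arrays, by Pearson correlation among 7689 brighter probe sets of single genes, were those of skl, Sirt7, CG31886, pug and CG14879, with r from 0.993 to 0.996. All 5 had higher signals in every zld clone array, which follows from choosing them by their likeness to rhi. The closest was skl, an activator of apoptosis, with 178 in zld clone and 16 in yw embryos on average. Sirt7, a deacetylase gene, had a small log2 fold change of 0.25 (adjusted p = 0.173, limma). With so few arrays and so many probe sets such correlations describe these arrays only.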

How the data were processed

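RNA of 3 zld clone and 3 yw embryo samples was measured on single-colour arrays. The deposited table holds 1 linear intensity per probe set for each array. Per the labels' protocols the authors acquired and normalized them with the GeneChip Operating Software, whose version and scaling target are not given in the sources used here. Trimmed of 2% of signals at either end, the arrays had 1 shared mean of 150, and this scaling by the authors was kept. The median signal per array was 16.4 to 18.3 in zld clone and 20.3 to 23.3 in yw embryos. Log2 values correlated at 0.982 to 0.992 within groups and 0.971 to 0.982 between groups, across probe sets. Precision is limited by having 3 arrays per group.

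Of 18952 probe sets 183 controls were left out. Among the 18769 tested, 13646 named 1 gene, 402 named more than 1 and 4721 none in the annotation used; 13543 were updated through gene identifiers to RefSeq (GCF_000001215.4). The brightest probe set stood for a gene. Background was taken from 162 signals of 27 Bacillus control probe sets.

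The test was limma 3.58.1 in R 4.3.3 (lmFit, eBayes with trend) on log2(signal + 16), with group as the only term. P-values were adjusted by Benjamini-Hochberg across the 18769 and called under 0.05. It was tested on simulated data. Exact permutation tests used scipy 1.17.1. Alternatives were pseudocounts of 1 and 64, a filter at the median signal, quantile normalization, median centring, the methods' t-test, eBayes without trend, a replicate block, array weights, arrays left out singly, yw replicates 1 and 2 left out together, and means over all probe sets of a gene.

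The members, lists, marker genes and tests were chosen with earlier results of these data known. All members were named, with up to 6 called genes of each other list or, with fewer than 2 called, the 2 with the largest log2 fold change above background. The genes moon, Panx, exu, vig and those overlapping other members were named after their values were seen. No symbol on the array marked a transposable element, and no sequence was used. The sample labels speak of duplicate collections and the series text of 3 replicate ones; where arrays share a collection, the p-values measure technical spread in part.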

Additional observations from a re-analysis of the deposited data

How the results depend on the processing

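The rise of rhi kept its direction under all 17 alternatives (0.70 to 0.97) and its call under 16, all but the methods' t-test. The number of members called higher was 1, and 2 (rhi and vas) with a pseudocount of 1, quantile normalization, eBayes without trend, array weights or the mean of all probe sets. It was 3 (rhi, vas and aub) with the filter at the median signal or median centring, and 0 under the methods' t-test. The methods' t-test also ended the call of zld (-2.11, adjusted p = 0.0836), and it called 2 probe sets higher and 0 lower in all, or 2491 at an unadjusted p under 0.05. The members' median log2 fold change was 0.34 with median centring, which moved the median of all probe sets by 0.157. It gave 552 higher and 127 lower probe sets in place of 162 and 146, a higher share of 81.3% in place of 52.6%. Median centring adds the same amount to the log2 fold change of every probe set, so the members moved by that amount too. The other 40 piRNA factors had 2 called genes (fs(1)Yb and papi), and 3 with a pseudocount of 1, array weights or the mean of all probe sets (with nxf2). The filter left 38 of the 40 in the test, without fs(1)Yb, and 2 of these were called (nxf2 and papi). Another 2 were called with median centring (fs(1)Yb and nxf2). There was 1 with a pseudocount of 64 or eBayes without trend, 0 under the methods' t-test, the replicate block and without yw replicates 1 and 2, and 0 to 1 with single arrays left out. Signs turned for genes near 0: del without yw replicate 2 (-0.039; -0.04 to 0.23 over single arrays left out) and without yw replicates 1 and 2 (-0.084), piwi without yw replicates 1 and 2 (-0.0037), krimp with median centring (0.062), and AGO3 with median centring (0.14), array weights (0.041), without zld clone replicate 2 (0.054), without yw replicate 1 (0.052; -0.088 to 0.054 over single arrays left out) and without yw replicates 1 and 2 (0.11). Among other small RNA genes Nxf3 turned without zld clone replicate 2 (0.17; -0.85 to 0.17 over single arrays left out) and pasha without yw replicate 3 (-0.033; -0.033 to 0.20). The cause of these changes was not tested. Deviations of same-numbered arrays of both groups correlated at r = 0.175, -0.011 and -0.032, and those of differently numbered arrays at -0.128 to 0.140. The value for replicates 1, 0.175, was the highest, but the other same-numbered values were near 0, and the replicate numbers were taken as names. With the replicate block 1 member, rhi, was called (adjusted p = 0.0248, limma), and over all probe sets 75 were higher and 76 lower. Signals of vas and fs(1)Yb lie close enough to background for their folds to move with the pseudocount.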
